A study of Astyanax mexicanus with 12 samples.

Results

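The change in the liver transcriptome of surface fish larvae between 7 and 5 days post-fertilization (dpf) is described here across all genes. Surface fish are the river-dwelling, sighted form of the Mexican tetra, Astyanax mexicanus, and cave populations such as Tinaja are the other form in the study. The comparison used the 6 surface fish libraries of the 12 in the study, chosen by their labels. There were 3 libraries at 7 dpf, from larvae that were fasted until that age, and 3 at 5 dpf, the age that the study calls fed. Both groups carried the surface genotype, and the labels name no agent. The embryos of a group came from more than 1 tank of parents. Each library held the livers of 40 larvae, so a replicate is a pool and not a single fish. The older larvae were also the fasted ones, so age and fasting cannot be told apart. In bulk livers, fewer cells of a type and less RNA per cell cannot be told apart either.

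Hepatocytes, the main cells of the liver, secrete most of the proteins of the blood plasma, so a small number of transcripts usually takes a large share of liver RNA. Yolk feeds a newly hatched fish, and feeding takes over when the yolk sac is empty. In vertebrates a fasting liver turns from storing nutrients to releasing glucose and burning fatty acids, and in several species it also accumulates lipid droplets. The deposited table lists genes by Ensembl identifier only, and 0 of its 27420 identifiers matched the RefSeq gene table used here. The liver label could therefore not be checked against hepatocyte markers, and no gene functions are given. The results describe instead which part of the transcriptome moved, by abundance, by size of change, by share of reads and by agreement of the pools.

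The libraries held 18472932 to 23586408 reads in genes at 7 dpf and 10589889 to 12492282 at 5 dpf. Reads aligned outside annotated genes were 22% to 23.6% of aligned reads at 7 dpf and 29.2% to 38.0% at 5 dpf, and unaligned reads were 3.9% to 4.59% of all reads at 7 dpf and 6.86% to 9.63% at 5 dpf. Neither range overlapped between the ages. Levels are given as CPM, counts per 1000000 reads in genes, on library sizes scaled by trimmed mean of M values (TMM) factors, which ran from 0.721 to 0.907 at 7 dpf and from 1.23 to 1.55 at 5 dpf. Surface 5 dpf replicate 1 stood apart from its group, with the fewest reads in genes, the most reads outside genes (38.0%) and the largest factor (1.55). Some of the results are therefore also given without it.

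The most abundant transcripts of the liver mostly rose at 7 dpf, with either scaling of the libraries. Tested transcripts under 10 CPM fell more often than they rose. In edgeR's quasi-likelihood test with Benjamini-Hochberg adjusted p under 0.1, 28.4% of 17540 tested genes passed, 14.1% being higher at 7 dpf and 14.4% lower. Without surface 5 dpf replicate 1, 1519 genes rose and 1543 fell. This near balance did not hold within classes of abundance, which were set by the mean CPM of the ages and so by reads per gene, not per length. Of the 159 genes at 1000 CPM and over, 104 (65.4%) rose and 1 (0.629%) fell. Of 1102 genes at 100 to 1000 CPM, 414 (37.6%) rose and 69 (6.26%) fell, whereas 240 rose and 332 fell when library totals replaced the TMM factors. At 10 to 100 CPM, 19.3% of 6978 genes rose and 14.1% fell, against 379 that rose and 3315 that fell with library totals. At 1 to 10 CPM, 8.05% of 7077 genes rose and 15.9% fell. Under 1 CPM, 36 of 2224 tested genes rose and 347 fell. The filter on low counts had removed the other genes of this class, which lists 12053. It keeps a gene that reaches its limit in as many libraries as 1 group holds. A gene this scarce could thus pass through the group where it is high, so the split is of genes chosen in part by the same values.

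Median fold changes followed the same order. The median log2 fold change was -0.61 under 1 CPM, -0.20 at 1 to 10 CPM, 0.07 at 10 to 100 CPM, 0.61 at 100 to 1000 CPM and 1.17 at 1000 CPM and over, against -0.05 over all tested genes. The value under 1 CPM rests on the 2224 of 12053 genes that passed the filter, as do the single-library values below. The fitted value was -0.23 without a filter and -0.28 in DESeq2. In the highest class 92.5% of genes had a positive fold change, and in the lowest 30.5%. Precision was best at 10 to 100 CPM, with a median standard error of 0.28. It was 0.35 at 100 to 1000 CPM and 0.37 at 1000 CPM and over. In the scarcer genes it was 0.42 for 1 to 10 CPM and 0.83 under 1 CPM. Each pool at 7 dpf showed the order by itself. Set against the mean of the 5 dpf libraries on log2(CPM + 0.5), the median of the highest class was 0.95, 1.25 and 1.41 in 7 dpf replicates 1, 2 and 3, and that of the lowest class was -0.29, -0.23 and -0.40. Without surface 5 dpf replicate 1 the fitted medians were -0.34, -0.09, 0.09, 0.52 and 1.01 in rising order of abundance. Without 7 dpf replicate 3 the median at 10 to 100 CPM was 0.01. The spread at 5 dpf was wider. With the mean of the 7 dpf libraries set against each 5 dpf library, the highest class had a median of 1.67 for replicate 1 and of 0.99 and 0.96 for replicates 2 and 3.

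**Figure D1:**
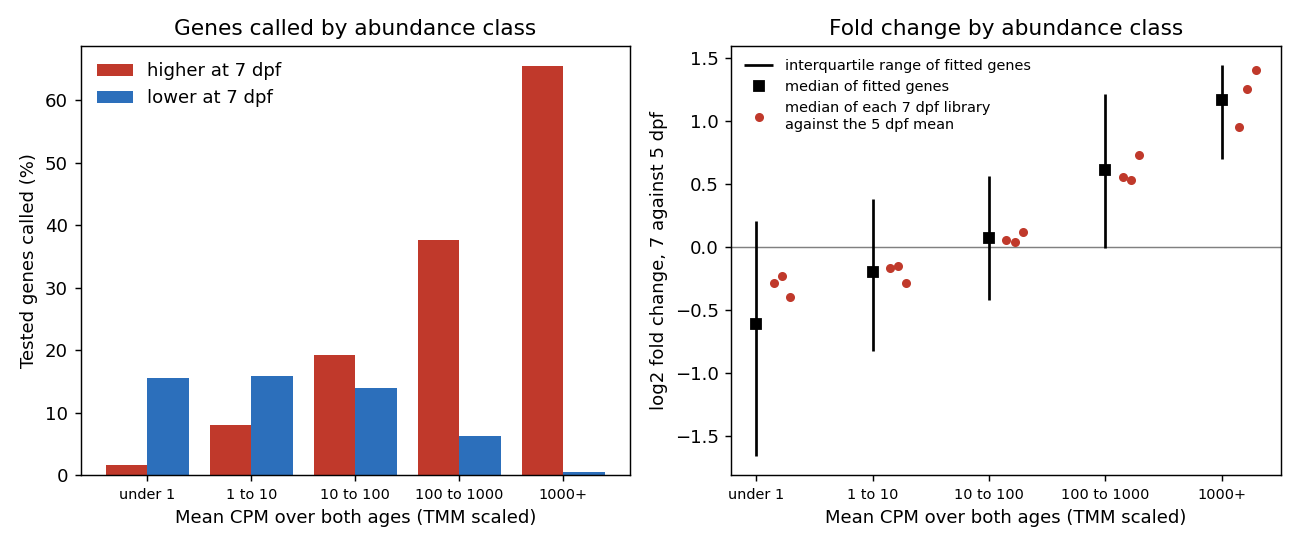
Left, the percent of tested genes called higher (red) or lower (blue) at 7 dpf in edgeR, by class of mean CPM (TMM scaled). Right, the median fitted log2 fold change (square) with its interquartile range (line) and the median of each 7 dpf library against the 5 dpf mean (red points). The share of tested genes called higher climbs to 65.4% in the highest class, and the medians run from -0.61 (-0.23 without the filter on low counts) to 1.17. When library totals replace TMM factors, the medians are -1.32, -0.91, -0.64, -0.10 and 0.47 in rising order of abundance, so that all but the highest lie below 0.

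The scaling sets where 0 lies on this axis. When library totals replaced TMM factors, all genes together had a median of -0.77, and 10.4% of 8128 called genes were higher at 7 dpf, against 49.5% of 4989 with TMM. All class medians moved down by similar amounts, to -1.32, -0.91, -0.64, -0.10 and 0.47 in rising order of abundance, so the classes kept their order while those at 10 to 100 and 100 to 1000 CPM changed sign. In the highest class 83 genes rose and 16 fell on that scale. In a fit with the percentage of reads outside genes as covariate, which itself separated the ages, 511 genes rose and 1038 fell. The class medians were then -0.17, 0.01, -0.01, 0.11 and 0.40 from the lowest class to the highest, so those at 1 to 10 and 10 to 100 CPM changed sign. Classes were also set by the level in the 6 Tinaja libraries, which do not enter the surface group means. The medians were then -0.49, -0.19, 0.07, 0.49 and 1.12 in rising order of abundance. The filter on low counts ran over all 12 libraries. A gene scarce in Tinaja could thus pass through the surface group where it is high, so the lowest class is still chosen in part by surface values.

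The share of reads held by the highest class was larger at 7 dpf in every library, and that of each class under 100 CPM was smaller. Shares are of unscaled counts, although the classes were set on scaled CPM, so a class can have a positive median fold change and a smaller share. Genes at 1000 CPM and over took 46.9%, 49.3% and 52.1% of the counts in 7 dpf replicates 1 to 3, against 33.5%, 39.6% and 39.0% in 5 dpf replicates 1 to 3. Every 7 dpf library was above every 5 dpf library. Without 5 dpf replicate 1 the difference in mean share was 10.1 points, against 12.1 points with all libraries. Genes at 10 to 100 CPM took 20.4%, 18.6% and 17.0% at 7 dpf and 32.2%, 26.3% and 26.8% at 5 dpf, again with no overlap and in the opposite direction. Genes at 100 to 1000 CPM took 29.3% ± 0.428 at 7 dpf and 29.5% ± 0.903 at 5 dpf (SD, n = 3), a difference of -0.17 points that was smaller than either SD (exact two-sided permutation p = 0.8). Genes at 1 to 10 CPM took 2.4% ± 0.416 at 7 dpf and 4.41% ± 0.863 at 5 dpf (SD, n = 3). For the classes that did not overlap, the exact two-sided permutation p was 0.1, the smallest that 3 against 3 libraries allow, and 0.117 after adjustment over 21 library measures.

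**Figure D2:**
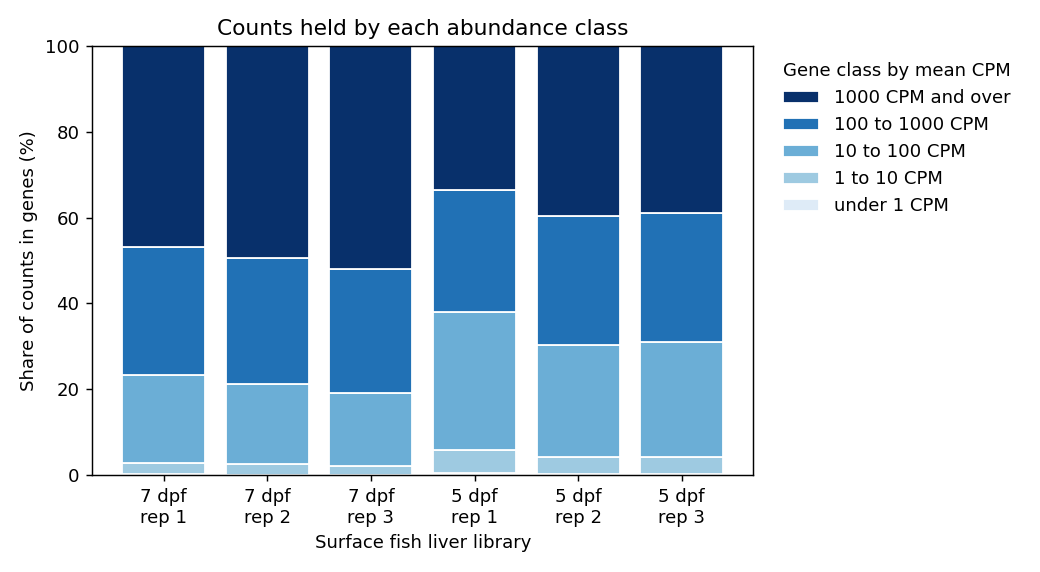
Share of counts in genes (%) held by the 5 classes of mean CPM in each surface fish liver library, with 7 dpf to the left of 5 dpf. The darkest block, genes at 1000 CPM and over, spans 46.9% to 52.1% at 7 dpf and 33.5% to 39.6% at 5 dpf.

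The reads were thus held by fewer genes at 7 dpf. It took 185, 159 and 138 genes to reach 50% of the counts in the 7 dpf libraries and 489, 292 and 294 genes in the 5 dpf libraries. The effective number of genes, the exponential of the Shannon entropy of the shares, was 1486, 1330 and 1118 at 7 dpf and 2930, 2145 and 2162 at 5 dpf. The single most abundant gene of a library held 3.28% to 4.34% of its counts at 7 dpf and 2.12% to 2.67% at 5 dpf. The ages did not overlap in any of these measures, nor in the share of the 100 most abundant genes, at 40.5%, 42.4% and 44.8% at 7 dpf and 30.5%, 35.0% and 34.9% at 5 dpf. Without 5 dpf replicate 1 the difference in that last share was 7.65 points, against 9.11 points with all libraries.

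In all, 26.9 points of the share of counts moved between genes from one age to the other. Gains in unscaled share were concentrated and losses were spread out. The shares of a library have a fixed sum, so a gain in abundant genes lowers the share of genes that do not change. On the TMM scale 47.3% of tested genes had a positive fold change. The 5119 genes that gained share included 10 that gained 7.15 points between them, 26.6% of the total, and 42 genes held 50% of the gain. Losses fell on 18180 genes, of which the first 10 gave up 3.77 points (14.0%) and 483 were needed to reach 50%. In single libraries, genes that rose held between 54.4% and 58.4% of reads in genes at 7 dpf and between 29.5% and 33.9% at 5 dpf. Genes that fell held 2.13% to 2.35% at 7 dpf and 9.64% to 11.4% at 5 dpf. These genes were called on the same libraries, so the direction of their shares is a description. The 12551 genes that did not pass held 41.4% on average at 7 dpf and 57.9% at 5 dpf, with no overlap between the ages.

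Fewer genes were detected at 7 dpf. With each library thinned to the 10589889 reads in genes of the smallest, 19393, 19342 and 18393 genes had at least 1 read in 7 dpf replicates 1 to 3, against 20799, 20267 and 20414 in 5 dpf replicates 1 to 3. Every 7 dpf library lay below every 5 dpf library. Without 5 dpf replicate 1 the difference in means was -1298 genes, against -1451 with all libraries. With at least 10 reads required, the numbers were 14810, 14577 and 13607 at 7 dpf and 16796, 15669 and 15782 at 5 dpf. Without thinning the deeper 7 dpf libraries overlapped with those at 5 dpf, at 19277 to 20539 genes at 7 dpf and 20479 to 20799 at 5 dpf. Reads outside genes and the TMM factors moved with age as well, and their part in these shifts was not tested.

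Single genes with the largest shifts in level are given by identifier, picked as the 2 with the largest gain and the 2 with the largest loss in mean CPM among called genes of at least 2-fold change whose groups do not overlap. ENSAMXG00000031412 had the most reads of all genes. It had 40757, 40046 and 60179 CPM at 7 dpf, against 13694, 21618 and 20082 CPM at 5 dpf. All 7 dpf values lay above all 5 dpf values, with 7 dpf replicate 3 the highest (log2 fold change 1.35, SE 0.36, edgeR adjusted p = 0.0256). As a share of unscaled counts it held 3.77% at 7 dpf and 2.43% at 5 dpf, so part of the fold change on the CPM scale comes with the TMM factors, and with library totals its log2 fold change was 0.63 (edgeR adjusted p = 0.0307). It did not pass in the fit with the covariate (log2 fold change 0.46, edgeR adjusted p = 0.534). Its other 15 alternatives passed, with an adjusted p from 0.000399 in DESeq2 to 0.0992 in edgeR without 7 dpf replicate 3. In Tinaja it stood at 33403 ± 2759 CPM at 7 dpf and 33678 ± 12234 CPM at 5 dpf (SD, n = 3), and the test of the difference between the morphs did not pass (surface minus Tinaja 1.36 on the log2 scale, edgeR adjusted p = 0.256).

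ENSAMXG00000009469, the gene with the next most reads, had 24939, 22552 and 36789 CPM at 7 dpf, against 6872, 13471 and 10551 CPM at 5 dpf. It was again highest in 7 dpf replicate 3 and lowest in 5 dpf replicate 1 (log2 fold change 1.45, SE 0.39, edgeR adjusted p = 0.0241), and it did not pass with the covariate (log2 fold change 0.95, edgeR adjusted p = 0.321). Its other alternatives passed, with an adjusted p from 0.00058 in DESeq2 to 0.0946 in edgeR without 7 dpf replicate 3, and with library totals its log2 fold change was 0.74. In Tinaja ENSAMXG00000009469 had a log2 fold change of 0.51 (edgeR adjusted p = 0.502). The test of its difference between the morphs did not pass (edgeR adjusted p = 0.398). Among the losses, ENSAMXG00000009012 changed most in ratio. It had 73.4, 122 and 198 CPM at 7 dpf, against 1016, 1513 and 2088 CPM at 5 dpf. The highest 7 dpf value was far below the lowest 5 dpf value (log2 fold change -3.55, SE 0.46; edgeR adjusted p = 0.00145), and all 16 alternatives called the fall, at an adjusted p of 0.0103 or lower. It also fell in Tinaja, with 179 ± 44.4 CPM at 7 dpf and 1347 ± 477 CPM at 5 dpf (SD, n = 3; log2 fold change -2.91, edgeR adjusted p = 0.0203).

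ENSAMXG00000010135 had 1121, 2373 and 2314 CPM at 7 dpf, against 3784, 5588 and 6741 CPM at 5 dpf. The groups did not overlap, as the rule of choice required, and its call was marginal (log2 fold change -1.47, SE 0.56, edgeR adjusted p = 0.0839). It was lost in 9 of 16 alternatives, including the omission of any 1 of the 6 surface libraries, and its adjusted p ran from 0.016 to 0.221 over the 16. Its log2 fold change stayed between -1.66 and -1.19 when a library was left out. It is the only called gene at 1000 CPM and over that was lower at 7 dpf. In Tinaja its log2 fold change was -1.57 and did not pass (edgeR adjusted p = 0.155). Nor did the test of its difference between the morphs (edgeR adjusted p = 0.963).

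**Figure D3:**
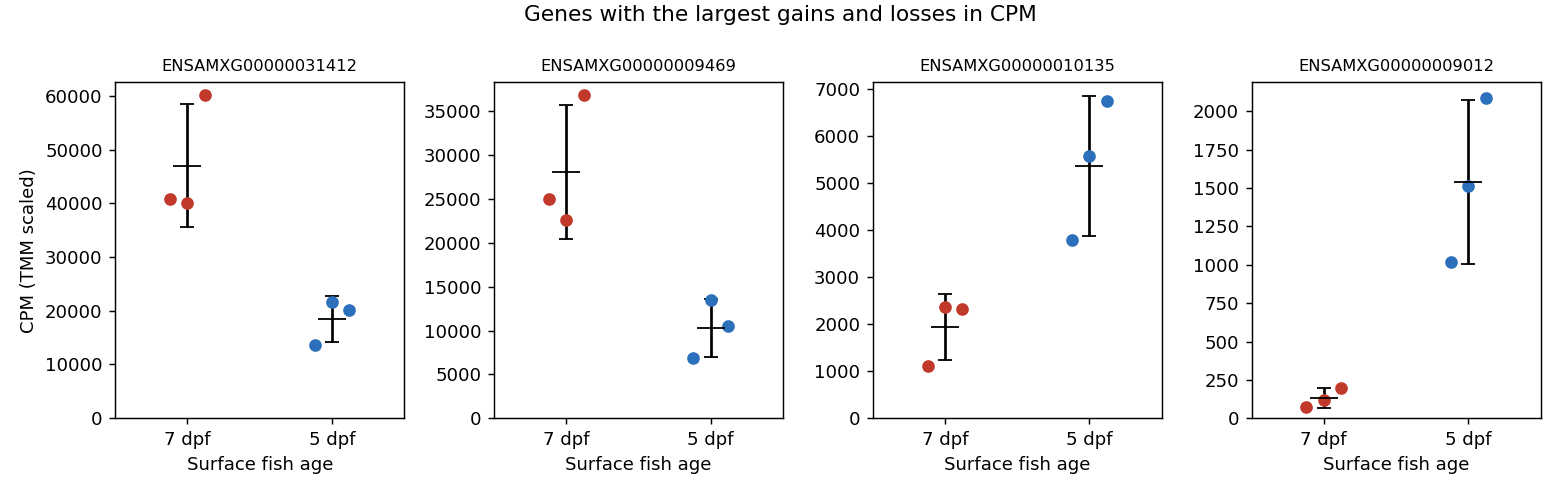
CPM (TMM scaled) of the 2 genes with the largest gain and the 2 with the largest loss in surface fish liver, by library (points) at 7 dpf (left, red) and 5 dpf (right, blue), with the mean and SD of 3 libraries. In each panel the 3 values of one age lie on one side of those of the other, as the rule that chose the genes required. Only for ENSAMXG00000010135 is the edgeR adjusted p above 0.05, at 0.0839.

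Large changes ran mostly downward. At a fold of 2 or more, 1533 genes rose (8.74% of those tested) and 1964 fell (11.2%). At 4-fold the numbers were 391 and 845, at 8-fold 159 and 323, at 32-fold 28 and 75, and at 64-fold 6 and 41. The genes past 8-fold that fell had a median of 0.134 CPM at 7 dpf and 2.38 CPM at 5 dpf, and 35 of the 323 had no read at 7 dpf. Not all were scarce, as ENSAMXG00000009012 is among them with a mean of 1539 CPM at 5 dpf. A scarce gene could pass the filter on low counts through the group where it is high, so these numbers are of genes chosen in part by the same values. The filter worked on unscaled CPM, while the mean TMM factor was 0.816 at 7 dpf and 1.34 at 5 dpf. The part of this in the split was not tested. Those that rose past 8-fold had a median of 28.2 CPM at 7 dpf and 1.37 CPM at 5 dpf, and 1 of the 159 had no read at 5 dpf. The rising genes held 5.38% of all reads in genes at 7 dpf and 0.618% at 5 dpf, while the falling genes held 0.0407% at 7 dpf and 1.01% at 5 dpf. Both sets were chosen on these libraries, so their shares are a description. The fitted folds of genes without reads in a group depend on the prior count. More genes fell than rose past 8-fold in each of the 16 other fits. Without the filter on low counts 160 rose and 404 fell. With the covariate 65 rose and 142 fell, and with library totals 83 rose and 724 fell. The number that rose past 8-fold was 87 in limma-voom, 99 in a fit of the surface libraries only, and 239 without 7 dpf replicate 3.

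**Figure D4:**
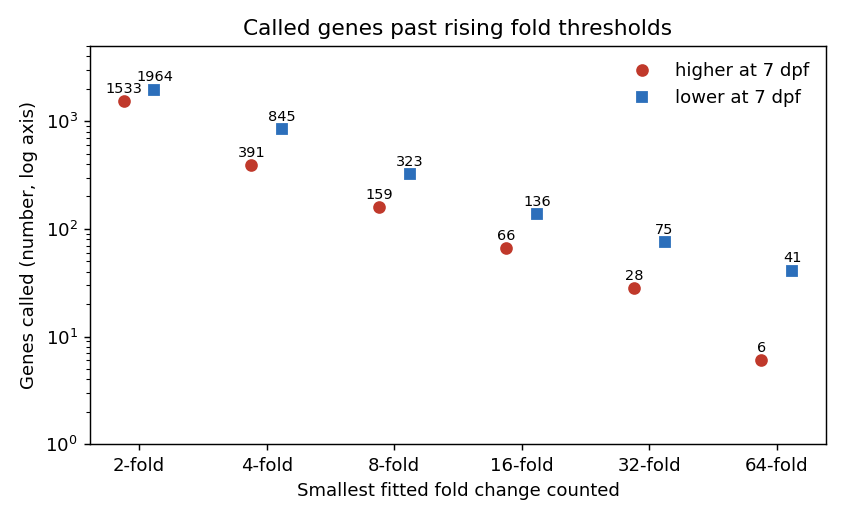
Number of genes called in edgeR (log axis) that were higher (red) or lower (blue) at 7 dpf, past fitted fold changes of 2 to 64. More genes fell than rose at each threshold, from 1533 higher and 1964 lower at 2-fold to 6 and 41 at 64-fold, with TMM scaling and, past 8-fold, with library totals too.

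In Tinaja cavefish, whose libraries shared the low-count filter, the scaling and the dispersions with the surface fit and so are not fully independent of the choice of these genes, 42 of the 159 risers (26.4%) rose and 65 of the 323 fallers (20.1%) fell. Of all tested genes 2.25% rose and 4.72% fell in Tinaja, 6.97% in all. The median log2 fold change in Tinaja was 1.18 for the 159 risers and -0.86 for the 323 fallers.

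Complete switches were rare. A gene was called on at one age and off at the other if it had at least 1 CPM in all 3 libraries of the first and no read in the second. No gene was on at 7 dpf and off at 5 dpf, and 1 was on at 5 dpf and off at 7 dpf. This gene had 0 reads in the 3 libraries at 7 dpf and 7.57, 1.23 and 1.48 CPM in replicates 1 to 3 at 5 dpf, most of its 166 reads coming from replicate 1. It was at least 58.3-fold lower at 7 dpf, taking 3 counts over the group as the floor for no read (edgeR adjusted p = 0.00962), a limit that covers counting error only. Without 5 dpf replicate 1 the same floor gave at least 22.6-fold, from 42 reads, and without 7 dpf replicate 1 at least 33.3-fold. In Tinaja it had 0, 0.0674 and 0 CPM at 7 dpf and 10.9, 38.2 and 6.64 CPM at 5 dpf. How many genes qualified depended on the limits. From 0.5 CPM 9 genes were on at 5 dpf and off at 7 dpf, from 2 CPM 0, on thinned counts 5, and with up to 1 read allowed in the off group 4, each with 0 genes in the other direction. Without 7 dpf replicates 1, 2 or 3 there were 3, 3 and 7 genes off at 7 dpf, and without 5 dpf replicates 2 or 3 there were 2 and 6. Genes on at 7 dpf and off at 5 dpf numbered 3 without 5 dpf replicate 1 and 1 without 5 dpf replicate 3.

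Many more genes had no read at one age but were barely read at the other. Of the 27420 listed genes, 4121 had no read in any surface library, 1259 had none at 7 dpf and some at 5 dpf, and 864 had none at 5 dpf and some at 7 dpf. Among them the median was 2 reads over the 3 libraries of 5 dpf and 1 read over those of 7 dpf. Reads in all 3 libraries of the other age were found for 159 of the 1259 and 47 of the 864. Loss of detection at 7 dpf was thus more frequent than gain, and at equal totals of reads in genes the numbers were 1725 and 682 genes. Equal totals are not equal depth on the TMM scale, as the mean TMM factor was 0.816 at 7 dpf and 1.34 at 5 dpf. The part of this difference in the numbers was not tested. With a wider gap, at least 10 CPM in every library of one age and under 1 CPM in every library of the other, 1 gene was on at 7 dpf and 3 were on at 5 dpf. All 4 passed in surface fish, which is a description, as they were chosen on these libraries. In Tinaja all 4 passed in the same direction, where 6.97% of all tested genes passed in either direction. On library totals the numbers were 0 and 11, without 7 dpf replicate 1 they were 2 and 5, without 7 dpf replicate 3 they were 3 and 9, and without 5 dpf replicates 1, 2 or 3 they were 2 and 3, 2 and 8, and 1 and 9.

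The pools of one age resembled each other more than those of the other age. On log2(CPM + 1) over the tested genes, Pearson's r was 0.947 to 0.953 between 7 dpf libraries, 0.951 to 0.975 between 5 dpf libraries and 0.873 to 0.935 between ages. These correlations are across genes, which are not independent. At 5 dpf, replicates 2 and 3 were the closest pair (0.975), and replicate 1 was at 0.957 and 0.951 from them. The closest pair across the ages was 7 dpf replicate 3 with 5 dpf replicate 2 (0.935), and the most distant 7 dpf replicate 2 with 5 dpf replicate 1 (0.873). Among genes of at least 10 CPM the ranges were 0.908 to 0.920, 0.901 to 0.958 and 0.738 to 0.860 in the same order.

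How far pools differed depended on abundance and on which pools were compared. For genes at 1000 CPM and over, the median absolute log2 difference was 0.38, 0.49 and 0.21 between 7 dpf replicates 1 and 2, 1 and 3, and 2 and 3, and 0.75, 0.81 and 0.18 between the same pairs at 5 dpf. The abundant genes thus set 5 dpf replicate 1 most apart from the other pools of its age, but not they alone. At 10 to 100 CPM its differences were 0.32 and 0.41, against 0.21 between 5 dpf replicates 2 and 3. For genes at 1 to 10 CPM the pairs lay closer together, at 0.38 to 0.45 within 7 dpf and 0.31 to 0.45 within 5 dpf. The lowest of these was again between 5 dpf replicates 2 and 3. The biological coefficient of variation from edgeR's common dispersion, as a fraction of the mean, was 0.429 at 7 dpf and 0.332 at 5 dpf, and without 5 dpf replicate 1 it was 0.248 at 5 dpf. The per-gene coefficient of variation had a median of 24.4% at 7 dpf and 24.6% at 5 dpf. In abundant genes it was smaller at 7 dpf with all libraries. At 100 to 1000 CPM its median was 18.6% at 7 dpf and 25.7% at 5 dpf. At 1000 CPM and over it was 19.4% at 7 dpf and 29.6% at 5 dpf, and larger at 7 dpf for 28.3% of genes. These 5 dpf medians include replicate 1 and were not taken without it. From 10 CPM upward the common-dispersion coefficient went the other way, at 0.346 at 7 dpf and 0.287 at 5 dpf. Without 5 dpf replicate 1 it was 0.213 at 5 dpf. A per-gene coefficient of variation over 100% was found for 5.56% of tested genes at 7 dpf and 2.81% at 5 dpf. Among tested genes under 1 CPM it was found for 22% at 7 dpf and 11.3% at 5 dpf.

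**Figure D5:**
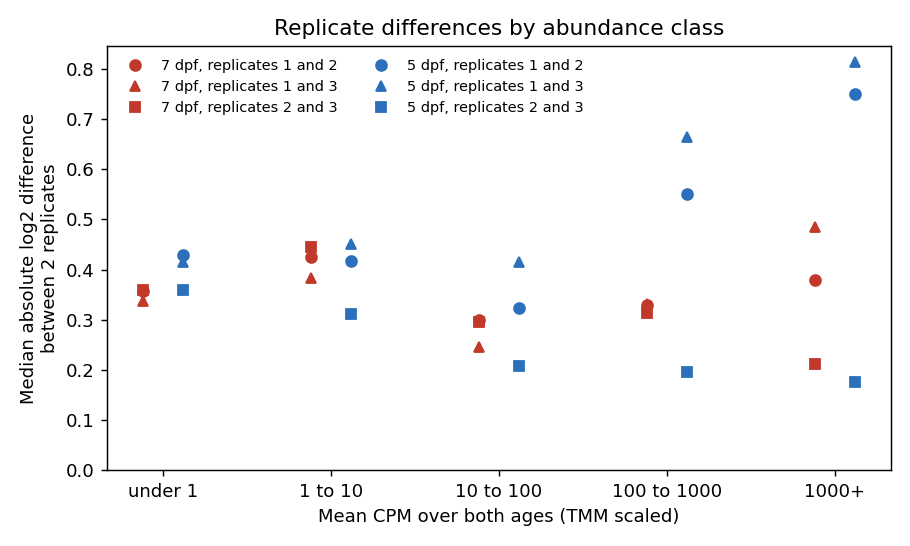
Median absolute log2 difference, on log2(CPM + 0.5), between 2 replicate libraries of surface fish liver at 7 dpf (red, left) and 5 dpf (blue, right), by class of mean CPM (TMM scaled). In the highest class the pairs with 5 dpf replicate 1 reach 0.75 and 0.81, and the other 5 dpf pair is at 0.18.

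Most called genes separated the ages in every pool. Among all tested genes, the groups did not overlap for 42.4%, of which 20.2% of genes were higher and 22.2% lower at 7 dpf. Of the 2468 genes that rose, 2307 (93.5%) were higher in all 9 pairs of a 7 dpf and a 5 dpf library, and of the 2521 that fell, 2383 (94.5%) were lower in all 9. The calls used the same libraries, so this is a description. A single pool held at least 80% of the summed CPM of its age for 52 of the risers, 39 of them through 7 dpf replicate 1, and for 19 of the fallers, 13 of them through 5 dpf replicate 1. Among the fallers, 5 dpf replicate 1 was the highest of its group for 44.2%.

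The calls were then repeated without each surface library in turn. The number that rose lay between 1519 and 1999 and the number that fell between 1543 and 2005, both lowest without 5 dpf replicate 1. Of the original calls 1147 rises (46.5%) and 1113 falls (44.1%) held in all 6 fits, and no gene was called in opposite directions. The fold change took the other sign for 28, 14 and 12 called genes without 7 dpf replicates 1, 2 and 3. Without 5 dpf replicates 1, 2 and 3 it did so for 1, 0 and 0. The rises that held were 55.8% of those at 1000 CPM and over, 49.8% at 100 to 1000 CPM, 49.3% at 10 to 100 CPM, 37.0% at 1 to 10 CPM and 25% under 1 CPM. Among the falls, 26.8% of the 347 under 1 CPM and 55.1% of the 69 at 100 to 1000 CPM held. The 1147 rises had a median log2 fold change of 1.36 and held 33.0% to 35.8% of reads in genes at 7 dpf and 15% to 17.0% at 5 dpf. The 1113 falls had a median of -1.93 and held 0.821% to 0.963% at 7 dpf and 5.11% to 5.91% at 5 dpf. Both sets were chosen on these libraries, so their shares and medians are a description.

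Set beside Tinaja, whose 7 and 5 dpf libraries were fitted in the same model, the order by abundance was flatter. The median log2 fold change of the surface classes was, in Tinaja, -0.05, 0.02, 0.04, 0.20 and 0.56 in rising order of abundance. At 1000 CPM and over, 14 of the 159 genes (8.81%) rose in Tinaja and 1 (0.629%) fell. Of all tested genes 2.25% rose and 4.72% fell there, so the highest class leaned upward in Tinaja as well. The difference of the age effects passed for 8 of 17540 tested genes (0.0456%), of which 0 were in the highest class. At an unadjusted p under 0.05 in edgeR it passed for 2769 of the 17540. The classes were set by the surface level, and a scarce gene could pass the filter on low counts through the surface group where it is high. The part of this choice in the flatter order was not tested. Nor was the difference between the class medians of the morphs.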

How the data were processed

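Livers of surface fish and Tinaja larvae were profiled by stranded poly(A) RNA-seq with single reads of 75 bp. The authors aligned reads with STAR 2.7.3a to astMex_2.0 with Ensembl 102 gene models, and name RSEM 1.3.0 for quantification. The deposited values are whole-number read counts per gene. The sources used here do not give which strand was counted, so overlapping genes are uncertain. Multimapping reads were counted apart, which leaves near-identical paralogues uncertain. The table's 4 rows that name no gene were dropped before scaling and testing. Shares outside genes and unaligned are given above, multimapping reads made up 6.48% to 11.5% of aligned reads in the surface libraries, and reads in overlapping genes 1.01% to 2.17%. The members and lists were chosen with earlier results of these data known.

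Counts were tested with edgeR 4.0.16 (R 4.3.3) by the quasi-likelihood test, with TMM factors, edgeR's filter on low counts, robust dispersions and a mean for each of the 4 groups over 12 libraries (8 residual degrees of freedom). The call threshold was a Benjamini-Hochberg adjusted p of 0.1, which the study used, and counts past 2-fold, its other criterion, are given too. Standard errors come from the F statistics. Libraries were compared by exact permutation tests, whose p-values were adjusted by Benjamini-Hochberg with scipy 1.17.1. Replicates are pools, and p-values measure only the spread between these pools, which may be technical. Replicate counts were compared only to look for a library deposited more than once, and no pair was that close (chi-square per gene of 27.9 to 104). Alternatives were RLE factors, library totals, DESeq2 1.42.0, limma-voom (limma 3.58.1), other filters, surface libraries only, a covariate, a replicate block, thinned counts and each surface library left out. Genes were named by the rule given with them, and their number was kept to 4 because no symbols matched. The gene lists and markers planned by symbol were not used here for the same reason. On/off counts on library totals, the 10 CPM gap, the fold limit of the switched gene without each library and the larger folds were added after the data were seen.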

Additional observations from a re-analysis of the deposited data

Results flagged for a closer look

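The age effect differed between surface fish and Tinaja for 8 genes by the test of the difference itself (edgeR adjusted p under 0.1), of which 2 had a higher and 6 a lower log2 fold change in surface fish. In surface fish 3 of the 8 rose and 5 fell.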

How the results depend on the processing

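With a replicate block, 2040 genes rose and 2221 fell, against 2468 and 2521 without it. Whether equal replicate numbers pair the libraries cannot be told from 3 libraries per group. Deviations of same-numbered surface libraries from their group means correlated at 0.23, -0.12 and -0.02, and those of Tinaja at 0.20, 0.03 and 0.51. Not every surface library correlated best with its own number. The highest surface value, 0.40, was between different numbers, 7 dpf replicate 3 and 5 dpf replicate 2. With library totals 849 genes rose and 7279 fell, 418 and 5536 of them by 2-fold or more, and with reads outside genes as a covariate 511 rose and 1038 fell, 448 and 955 by 2-fold or more. In rising order of abundance the class medians were -1.32, -0.91, -0.64, -0.10 and 0.47 with library totals and -0.17, 0.012, -0.0080, 0.11 and 0.40 with the covariate. Under 1 CPM the median was also -0.28 in DESeq2, -0.23 without a filter on low counts and -0.52 with surface libraries only, and with Tinaja-based classes -0.49 there and 0.49 at 100 to 1000 CPM. The cause of these moves was not tested. Genes off at 7 dpf numbered 9 at 0.5 CPM, 0 at 2 CPM, 5 on thinned counts, 4 with up to 1 read and 4 on library totals. The share difference was 2.90 points for the 10 most abundant genes, and the difference in genes detected without thinning was -624.7. The mean correlation at 7 dpf was 0.955 and 0.946 with prior counts of 2 and 0.5. From 10 CPM upward the mean correlation was 0.915 at 7 dpf and 0.929 at 5 dpf. The common-dispersion coefficient of variation there was 0.346 of the mean at 7 dpf and 0.287 at 5 dpf.

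Left out in turn, the surface libraries gave 1519 to 1999 rises and 1543 to 2005 falls. The class medians ran from -0.89 to -0.34, -0.25 to -0.085, 0.014 to 0.11, 0.48 to 0.71 and 1.01 to 1.31, genes off at 7 dpf from 1 to 7 and off at 5 dpf from 0 to 3. Mean correlations ran from 0.947 to 0.953 at 7 dpf and 0.951 to 0.975 at 5 dpf, and the coefficient of variation from 0.403 to 0.434 at 7 dpf and from 0.248 to 0.364 at 5 dpf. Pools of larvae, 3 per age, limit all calls.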
